A study of Mus musculus with 6 samples.

Results

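Transcripts that identify T cells, natural killer (NK) cells and regulatory lymphocytes were followed in skeletal muscle of mdx mice given an antibody to CD25 or a control antibody. The set was a list of 41 gene symbols, and a gene was measured where a probe set of the array carried its symbol alone. That was the case for 39 of the 41, each with 1 probe set, out of 19752 genes measured in all. Lck, the kinase that starts T cell receptor signalling, and Tcf7, a transcription factor of T cells, had no such probe set and are not analysed here. Every mouse carried the mdx mutation of dystrophin, the controls included. A group of 3 samples came from mice injected with anti-CD25 monoclonal antibody, clone PC61, and a group of 3 from mice injected with rat IgG. Both antibodies were given by 2 intraperitoneal injections, on days 17 and 20 of age. Dissection was 7 days after the second injection per the design text, that is, on day 27, but the age in the labels is 6 weeks. The labels name the tissue only as skeletal muscle, flash-frozen and extracted whole, and do not say whether the samples of a group are separate mice, so p-values measure the spread between these samples, part of which may be technical.

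T cells recognise antigen through a receptor that signals by way of the CD3 chains, with CD4 or CD8 as a coreceptor. NK cells and cytotoxic T cells kill with granule proteins such as perforin and the granzymes, under the control of paired activating and inhibitory receptors. Regulatory T cells, defined by the transcription factor Foxp3, restrain other lymphocytes and carry much CD25, the interleukin-2 receptor alpha chain, to which PC61 binds. In injured and dystrophic muscle lymphocytes are a minority beside fibres and macrophages. In RNA from whole muscle, fewer cells of a type and less RNA per cell cannot be told apart.

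The promoters of 4 members are shown because the results below turn on these genes: Foxp3 defines regulatory T cells, which carry CD25, Cd3e marks T cells in general, and Il18rap and Trat1 were the members whose groups did not overlap. Each window runs from 250 bases before to 50 bases after a transcript start in RefSeq (GRCm38.p6), 5′ to 3′ on the gene's strand. Capitals mark matches, on either strand, to the ETS core AGGAAG, the RUNX motif TGTGGT, the TCF/LEF motif CTTTGA, the T-box motif AGGTGT or the TATA box TATAAA. These letters do not overlap one another within a window unless capitals run on.
Foxp3, chrX:7579426-7579725, plus strand, the first of 2 windows in the table: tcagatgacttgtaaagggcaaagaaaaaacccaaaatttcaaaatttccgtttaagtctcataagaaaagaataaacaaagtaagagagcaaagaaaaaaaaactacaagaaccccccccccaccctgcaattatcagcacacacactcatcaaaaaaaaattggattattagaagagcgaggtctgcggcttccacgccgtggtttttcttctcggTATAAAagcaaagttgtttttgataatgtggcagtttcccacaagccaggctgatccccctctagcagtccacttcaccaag
Cd3e, chr9:45009562-45009861, minus strand: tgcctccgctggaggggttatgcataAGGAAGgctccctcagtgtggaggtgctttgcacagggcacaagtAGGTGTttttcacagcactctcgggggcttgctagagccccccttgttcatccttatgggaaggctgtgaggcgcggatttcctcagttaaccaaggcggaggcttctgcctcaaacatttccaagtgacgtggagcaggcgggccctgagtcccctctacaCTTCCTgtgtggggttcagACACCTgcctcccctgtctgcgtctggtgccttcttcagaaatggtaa
Il18rap, chr1:40515112-40515411, plus strand: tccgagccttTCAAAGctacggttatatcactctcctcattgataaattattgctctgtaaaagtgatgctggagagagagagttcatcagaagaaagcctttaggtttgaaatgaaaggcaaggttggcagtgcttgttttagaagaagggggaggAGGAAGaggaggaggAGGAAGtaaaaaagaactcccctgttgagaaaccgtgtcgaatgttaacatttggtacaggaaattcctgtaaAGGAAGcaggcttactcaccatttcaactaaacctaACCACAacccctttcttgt
Trat1, chr16:48772013-48772312, minus strand: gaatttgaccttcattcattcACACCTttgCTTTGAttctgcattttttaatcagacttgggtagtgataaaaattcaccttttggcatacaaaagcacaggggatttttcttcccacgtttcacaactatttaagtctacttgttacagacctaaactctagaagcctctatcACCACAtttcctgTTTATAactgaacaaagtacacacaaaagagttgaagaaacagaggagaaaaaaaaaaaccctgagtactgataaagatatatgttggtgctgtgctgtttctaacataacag
The table held 40 windows of 32 members. The RUNX motif was in 16 of them (40.0%), against 16.8% of all 32851 promoter windows, and the T-box motif in 9 (22.5%), against 13.7%. The ETS core was in 18 (45.0%, against 35.4%), the TCF/LEF motif in 8 (20.0%, against 16.0%) and the TATA box in 7 (17.5%, against 13.6%). A match is a string of letters, not a site shown to be bound.

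The arrays were alike in overall brightness, with a median of 7.23 to 7.24 log2 units. All 8 skeletal muscle genes looked at, such as Ckm and Acta1, lay above the array median on every array, as did 11 of 12 monocyte and macrophage genes. The lower quartile divided the arrays. It was 5.82 to 5.85 on rat IgG 1, rat IgG 2 and anti-CD25 3, against 5.68 to 5.70 on the other arrays. Xist, the RNA of the inactive X chromosome, lay between 11.77 and 11.94 on 4 arrays and at 5.48 and 5.49 on rat IgG 3 and anti-CD25 3, although the labels call every mouse male. The Y-linked genes divided the arrays the same way, in the opposite direction: Eif2s3y lay between 3.47 and 3.77 on the 4 arrays with high Xist and at 9.16 and 9.22 on rat IgG 3 and anti-CD25 3, and Uty at 3.61 to 3.94 against 8.77 and 8.57. These values go against the male label for 4 libraries, 2 in each group, and the arrays are called below by their Xist level. Across genes, rat IgG 3 correlated with rat IgG 1 and 2 at Pearson's r = 0.991, below each of its correlations with the anti-CD25 arrays, 0.993 to 0.995.

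Of the 39 measured members, 38 lay below the array median on all 6 arrays, and only Ikzf2 lay above it on all 6. Over all genes, 47.7% lay above it on all 6. Ikzf2 encodes Helios, an Ikaros-family transcription factor of regulatory T cells and other cells. In the order of replicates 1, 2 and 3, used throughout, it measured 7.85, 7.75 and 7.79 log2 units with rat IgG and 7.63, 7.86 and 7.56 with anti-CD25. These groups overlapped, since anti-CD25 2 was the highest array and the other anti-CD25 arrays the lowest. Of the 38 others, 17 members lay between the lower quartile and the median on every array, 16 lay below the lower quartile on every array, and 5 lay on either side of it. Member means over the 6 arrays ran from 3.46, for the NK receptor gene Klre1, to 7.74 for Ikzf2. Intensity depends on the probes as well as the transcript, so the position of a gene against the array median does not rank the members by abundance. With all genes ranked by mean signal and cut into 3 classes of 6584, 28 members fell in the dim class, 11 in the middle class and 0 in the bright class.

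**Figure D1:**
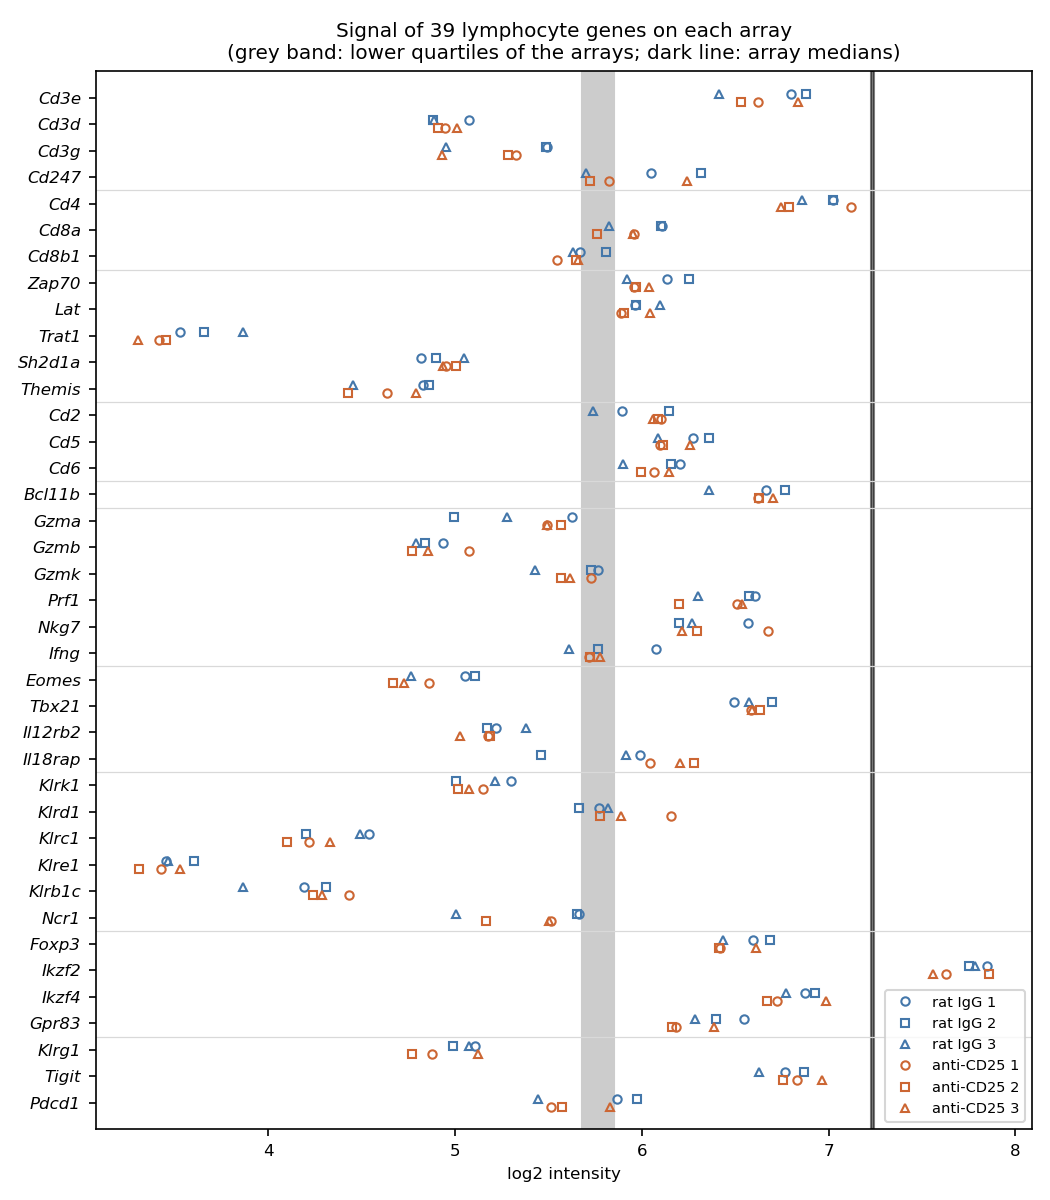
Log2 intensity (x axis) of the 39 measured members (y axis, grouped by role by the thin lines) on each of 6 arrays, blue for rat IgG and orange for anti-CD25, with a symbol for each replicate number. The dark line spans the 6 array medians, 7.23 to 7.24, which only Ikzf2 exceeds, and the grey band spans the lower quartiles, 5.68 to 5.85.

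The CD3 chains carry the receptor's signal into the cell, and all 4 were measured. Cd3e measured 6.80, 6.88 and 6.42 with rat IgG and 6.62, 6.53 and 6.84 with anti-CD25. The groups overlapped throughout, with rat IgG 3 the lowest array and anti-CD25 3 level with rat IgG 1 and 2. The difference, anti-CD25 minus rat IgG here and below, was -0.033 (SE 0.13, 95% interval -0.34 to 0.27), with p = 0.9 by an exact two-sided permutation test, which cannot go below 0.1 in this design. It was -0.17 without rat IgG 3 and 0.057 without rat IgG 2. Cd3g measured 5.49, 5.49 and 4.95 with rat IgG and 5.32, 5.28 and 4.93 with anti-CD25. In each group replicate 3 was the low array, and the difference was -0.13 (SE 0.16), with -0.31 when rat IgG 3 was left out and -0.0072 when anti-CD25 3 was. Cd3d, at 5.08, 4.88 and 4.89 with rat IgG and 4.95, 4.91 and 5.01 with anti-CD25, varied by less than either, with a difference of 0.0063 (SE 0.087). Cd247, the zeta chain, differed by -0.091 (SE 0.18) and spread over 0.61 log2 units, from 5.70 on rat IgG 3 to 6.32 on rat IgG 2, so that leaving out these arrays gave -0.25 and 0.056.

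The coreceptors bind the MHC molecule that presents the antigen, CD4 to class II and CD8 to class I. Cd4 measured 7.02, 7.03 and 6.86 with rat IgG and 7.12, 6.79 and 6.75 with anti-CD25. The highest array and the pair of lowest arrays were all from the anti-CD25 group, and the difference was -0.085 (SE 0.11), which was -0.20 without anti-CD25 1 and -0.016 without anti-CD25 3. Cd8a measured 6.11, 6.11 and 5.83 with rat IgG and 5.96, 5.76 and 5.95 with anti-CD25. Rat IgG 1 and 2 lay above every anti-CD25 array and rat IgG 3 below the highest of them, and the difference was -0.12 (SE 0.11, exact permutation p = 0.3), -0.22 without rat IgG 3 and -0.059 without anti-CD25 2. Cd8b1, the CD8 beta chain, differed by -0.088 (SE 0.085).

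Among proteins that act downstream of the receptor, the kinase Zap70, the adaptor Lat and Themis, needed for thymocyte selection, differed by -0.12, -0.063 and -0.095. Zap70 differed by -0.21 without rat IgG 3 and by -0.040 without rat IgG 2. Sh2d1a, the adaptor SAP of SLAM-family receptors, differed by 0.043. Trat1, an adaptor associated with the receptor complex, was the member with no overlap in the lower direction. It measured 3.53, 3.66 and 3.86 with rat IgG and 3.42, 3.45 and 3.30 with anti-CD25. All these values lie far under the lower quartile of their arrays, and the mean is at percentile 2.09 of all genes. The means were 3.68 ± 0.17 (SD, n = 3) and 3.39 ± 0.077 (SD, n = 3), a difference of -0.29 (SE 0.10, 95% interval -0.53 to -0.059). Limma gave an unadjusted p of 0.0196 and an adjusted p of 0.750, and the exact permutation p was 0.1, the smallest possible. The difference was -0.20 without rat IgG 3, the highest array. Split by Xist level, it was -0.16 for the 4 high arrays and -0.56 for the pair of low ones.

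Cd2, an adhesion receptor of T and NK cells, was among the few T cell genes with a higher mean on the anti-CD25 arrays, at 0.16 (SE 0.11), with 6.10, 6.08 and 6.06 there against 5.90, 6.15 and 5.74 with rat IgG. Without rat IgG 3, its lowest array, the difference was 0.061, and without rat IgG 2 it was 0.27. Cd5 and Cd6, scavenger-receptor-like proteins that tune receptor signalling, differed by -0.086 and -0.017. Bcl11b, a zinc finger factor that T cells need to keep their identity, measured 6.67, 6.77 and 6.36 with rat IgG and 6.62, 6.63 and 6.70 with anti-CD25. Rat IgG held both its highest and its lowest array, and the difference was 0.053 (SE 0.11), which turned to -0.066 without rat IgG 3. Taking the CD3 chains, coreceptors, signalling proteins, surface receptors and Bcl11b as 16 T cell genes, 12 were lower and 4 higher, with a median difference of -0.085, and 0 passed limma's test adjusted over all genes.

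Cytotoxic effectors showed means on both sides of 0. Gzmb, the granule protease granzyme B, measured 4.94, 4.84 and 4.79 with rat IgG and 5.07, 4.77 and 4.85 with anti-CD25. The highest and the lowest array both came from the anti-CD25 group, and the difference was 0.044 (SE 0.099). Gzma, another granule protease, differed by 0.22 (SE 0.14), with rat IgG 2 below all other arrays and rat IgG 1 above them at 5.63. Without rat IgG 2 the Gzma difference was 0.064. Gzmk differed by -0.0050, the pore protein gene Prf1 by -0.081, the granule membrane protein gene Nkg7 by 0.052 and Ifng, which encodes interferon gamma, by -0.080.

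Regulators of type 1 responses held the member with no overlap in the higher direction. Il18rap, the accessory chain of the interleukin-18 receptor on NK and T cells, measured 5.99, 5.46 and 5.91 with rat IgG and 6.04, 6.28 and 6.20 with anti-CD25. Every anti-CD25 array lay above every rat IgG array, but anti-CD25 1 lay close to rat IgG 1, and rat IgG 2 far below the rest. The means were 5.79 ± 0.29 (SD, n = 3) and 6.18 ± 0.12 (SD, n = 3), a difference of 0.39 log2 units (SE 0.14, 95% interval 0.065 to 0.71). That is 1.31-fold on the linear scale. Limma gave an unadjusted p of 0.0237 and an adjusted p of 0.750, and the exact permutation p was 0.1. The difference was 0.22 without rat IgG 2 and 0.49 without rat IgG 1. It was 0.44 at high Xist, 0.29 at low Xist and 0.43 after a second quantile normalization. Il12rb2, a chain of the interleukin-12 receptor, differed by -0.13 (SE 0.091). The T-box factors that drive cytotoxic and type 1 programmes differed by -0.22 (SE 0.11) for Eomes and 0.013 (SE 0.083) for Tbx21. The Eomes difference was -0.13 after a second quantile normalization.

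NK receptors were likewise divided. Ncr1, the activating receptor NKp46 and a defining NK cell marker, measured 5.66, 5.65 and 5.01 with rat IgG and 5.51, 5.16 and 5.50 with anti-CD25. Rat IgG 3 and anti-CD25 2 were low in an otherwise close set, and the difference was -0.048 (SE 0.18), which was -0.27 and 0.066 without the one and the other. Klrd1 encodes CD94, which pairs with NKG2 proteins, and differed by 0.19 (SE 0.11), whereas Klrc1, its inhibitory partner NKG2A, differed by -0.20 (SE 0.11). Klrb1c, the NK1.1 antigen, differed by 0.20 (SE 0.12) and Klrk1, the activating receptor NKG2D, by -0.094 (SE 0.097). The Klrd1 difference was 0.080 without anti-CD25 1 and 0.27 without anti-CD25 2. Klrb1c was at 0.071 if rat IgG 3 was left out, at 0.29 if rat IgG 2 was, and at 0.30 after a second quantile normalization. Klrc1 was at -0.30 without rat IgG 2 and -0.13 without rat IgG 1. The Klr genes form families of similar sequence, and array probes may not separate all relatives. Of 16 cytotoxic, type 1 and NK genes, 9 were lower and 7 higher with a median of -0.027, and 0 passed adjusted over all genes.

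Foxp3 measured 6.60, 6.69 and 6.43 with rat IgG and 6.42, 6.41 and 6.61 with anti-CD25. Anti-CD25 3 lay as high as rat IgG 1, and rat IgG 3 as low as anti-CD25 1 and 2, and the groups overlapped. The difference was -0.092 (SE 0.099, 95% interval -0.32 to 0.13). Leaving out rat IgG 3 gave -0.16 and leaving out rat IgG 2 gave -0.035, and it was -0.054 after a second quantile normalization. Ikzf4, the Foxp3 partner Eos, measured 6.87, 6.93 and 6.77 with rat IgG and 6.73, 6.67 and 6.99 with anti-CD25. Here anti-CD25 3 was the highest of all arrays and the difference was -0.063 (SE 0.10), which was -0.16 without that array and -0.0012 without anti-CD25 2. Gpr83, a G protein-coupled receptor abundant in regulatory T cells, differed by -0.17 (SE 0.10) and Ikzf2 by -0.11 (SE 0.097). Ikzf2 was at -0.20 without anti-CD25 2 and -0.050 without anti-CD25 3, and Gpr83 at -0.097 without rat IgG 1. All 4 regulatory T cell genes had lower means on the anti-CD25 arrays, as did 57.6% of all genes of like signal, and none passed limma's test. Between the 2 arrays with low Xist, 3 of the 4 were higher with anti-CD25, Foxp3 by 0.18, Ikzf4 by 0.21 and Gpr83 by 0.10, and Ikzf2 was lower, at -0.22.

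Inhibitory receptors of differentiated T and NK cells gave mixed signs. Klrg1 measured 5.11, 4.99 and 5.08 with rat IgG and 4.88, 4.77 and 5.12 with anti-CD25. Anti-CD25 3 was the highest array, and the difference was -0.13 (SE 0.10), -0.23 without that array and -0.058 without anti-CD25 2. Tigit, a receptor shared by regulatory T, NK and activated T cells, measured 6.77, 6.87 and 6.63 with rat IgG and 6.83, 6.75 and 6.97 with anti-CD25. Anti-CD25 3 was again the highest, and the difference was 0.099 (SE 0.096), which was 0.035 without rat IgG 3 and 0.16 without rat IgG 2. Pdcd1, which encodes PD-1, differed by -0.12 (SE 0.15), by -0.28 without rat IgG 3 and by -0.016 without rat IgG 2.

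Over all members, 27 were lower and 12 higher with anti-CD25, and the median difference was -0.081. None had an adjusted p under 0.05 in limma's test with Benjamini-Hochberg adjustment, nor did any other of the 19752 genes (0%), and the smallest adjusted p of a member was 0.750. At an unadjusted p under 0.05 stood 2 of 39 members (5.13%), against 6.28% of all genes. They were Il18rap, higher, and Trat1, lower, where 2.3% and 3.98% of all genes had such a p in these directions. The same 2 were the members whose groups did not overlap, against 11.7% of all genes. The share by unadjusted p lies near its background and the share without overlap below it, with only 2 members in each. Differences ran from -0.29 to 0.39, 35 of the 39 were smaller than 0.2 in size, and the median interval reached 0.24 to each side. The count at an unadjusted p under 0.05 was 3 when rat IgG 1 was left out (6.69% of all genes) and 4 for rat IgG 2 (3.36%, under the members' share). It was 6 for rat IgG 3 (15.3%, close to the members' share) and 1 for anti-CD25 3 (6.87%, above the members' share). Without rat IgG 3, 7 of all genes passed the adjusted threshold and 0 of them were members. Leaving out 1 array raised the members without overlap to between 4 and 17, as it did the share of all genes, to between 15.9% and 33.8%. They numbered 4 without rat IgG 1 (23.1% of all genes), 8 without rat IgG 2 (15.9%) and 17 without rat IgG 3 (33.8%).

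**Figure D2:**
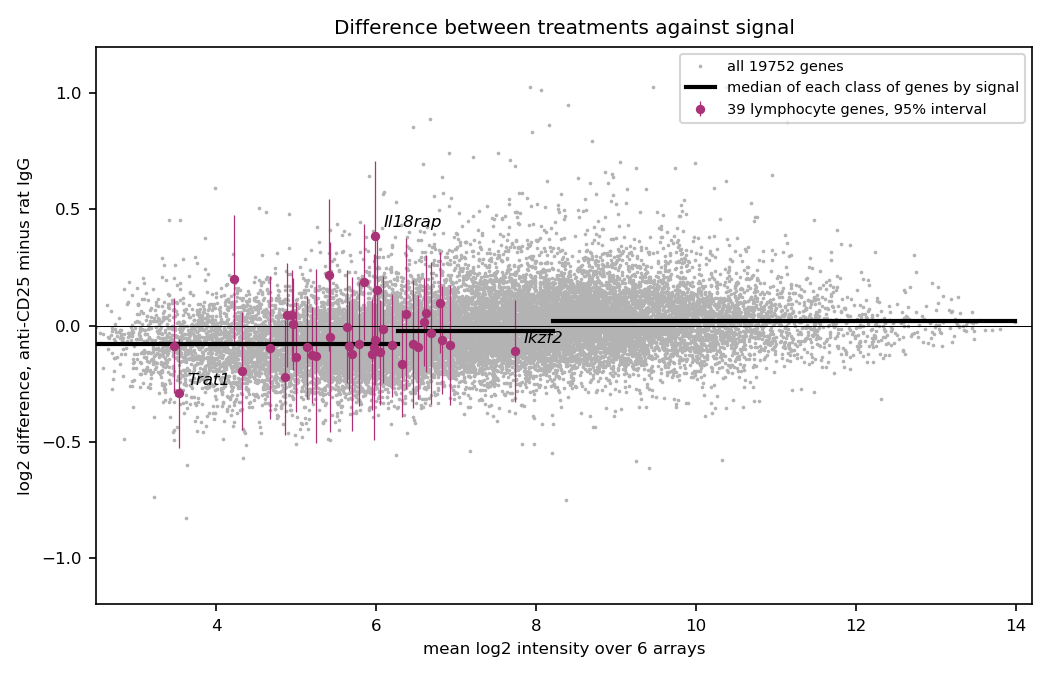
Log2 difference between treatments (y axis) against mean log2 intensity (x axis) for all 19752 genes (grey), with the 39 members in purple and their 95% intervals; black lines give the median of each class of genes by signal. The members lie in the left part of the plot, where the median of the dim class is -0.078, and 37 of the 39 intervals hold 0.

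Lower means were about as frequent among other dim genes. In the dim class, 20 of 28 members were lower (71.4%), against 76.1% of the 6584 genes there, and their medians were -0.087 and -0.078. In the middle class 7 of 11 members were lower (63.6%), against 57.6%, with medians of -0.063 and -0.022. Over all genes 58.9% were lower, and the median was -0.026. After a second quantile normalization 17 of 28 members in the dim class were lower, against 52.8% of its genes, with medians of -0.020 and -0.0079. In the middle class 7 of 11 members were then lower, against 55.1%. Of all 39 members 24 were then lower, with a median of -0.022, against 54.1% and -0.012 for all genes. Leaving out rat IgG 1 moved the members' median to -0.037, leaving out rat IgG 2 to -0.027, and leaving out anti-CD25 2 to -0.0018.

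The median member followed a pattern over arrays that cut across the treatments. Relative to each gene's mean over the 6 arrays, the median member stood at 0.096 and 0.10 on rat IgG 1 and 2 and at 0.060 on anti-CD25 3, the arrays with the high lower quartile. It stood at -0.098 on rat IgG 3 and at -0.011 and -0.081 on anti-CD25 1 and 2. The dim class of all genes stood at 0.076, 0.086 and 0.040 on the first 3 of these and at -0.044, -0.084 and -0.077 on the other 3. Rat IgG 1 or 2 was the highest array for 25 members, 12 and 13, and rat IgG 3 or anti-CD25 2 the lowest for 13 and 11. Those shares, 30.8% and 33.3% for the highest and 33.3% and 28.2% for the lowest, lie near those of the dim class, 27.6%, 31.6%, 27.7% and 25.9%. On anti-CD25 1 members and dim genes parted. It was the lowest array for 5.13% of members against 27.8% of the dim class, and the highest for 12.8% against 4.51%. The pattern was that of the T cell and of the regulatory and inhibitory genes, whose medians were 0.15 and 0.071 on rat IgG 2 and 0.057 and 0.13 on anti-CD25 3. The 16 cytotoxic, type 1 and NK genes departed from it in part, with medians of -0.017 on rat IgG 2, 0.0076 on anti-CD25 3 and 0.057 on anti-CD25 1. On rat IgG 1, rat IgG 3 and anti-CD25 2 they kept to it, at 0.14, -0.092 and -0.075. Cd3e, Cd247, Foxp3, Ikzf4, Pdcd1 and Cd5, picked as examples after their values were seen, were each higher on rat IgG 1, rat IgG 2 and anti-CD25 3 than on the other arrays. After a second quantile normalization the median member stood between -0.032 and 0.052 on all arrays, with anti-CD25 1 the highest. The part of the lower quartile in any single gene's pattern was not tested.

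**Figure D3:**
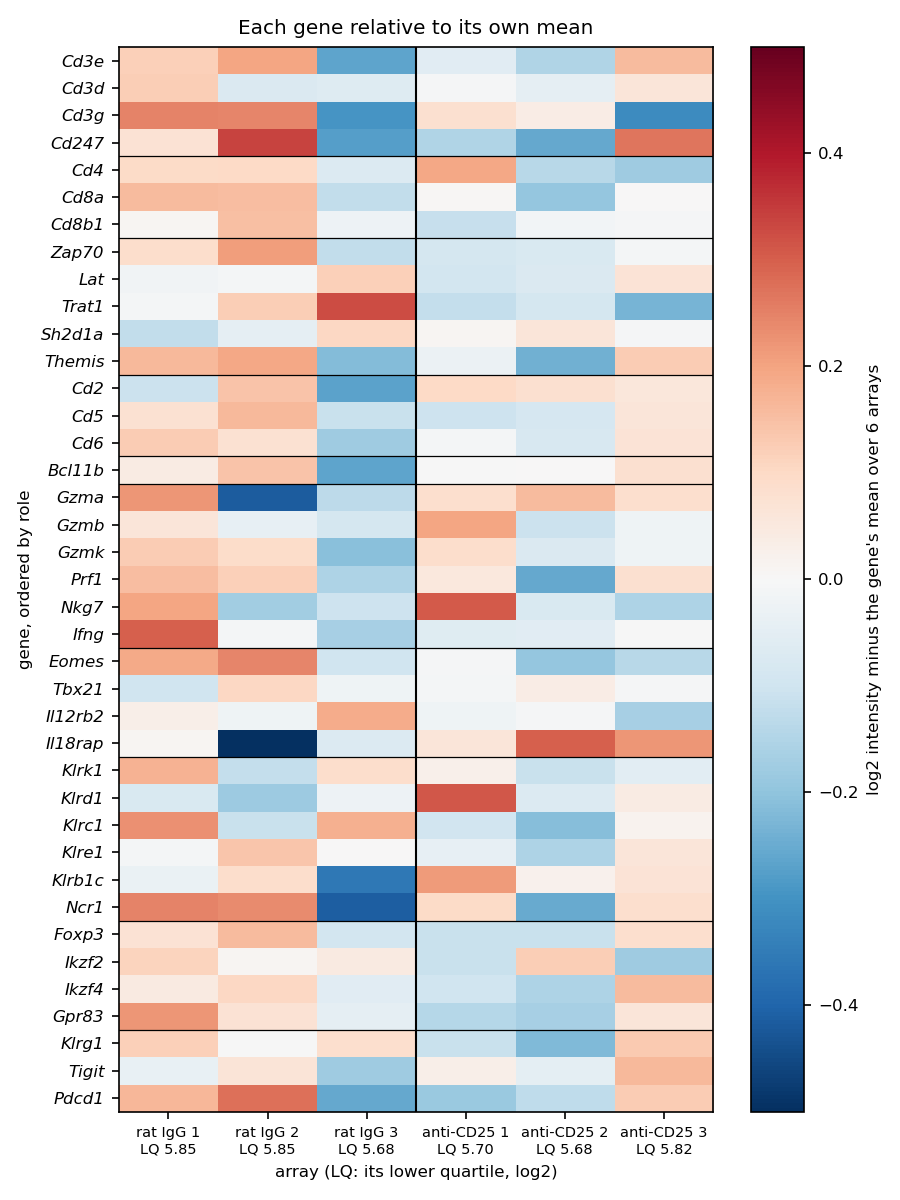
Colour shows the log2 intensity of each member (rows, ordered by role) on each array (columns) minus that gene's mean over 6 arrays, red above and blue below, with the scale ending at 0.5; the array's lower quartile is printed under its name. Rat IgG 1 and 2 are mostly red and rat IgG 3 and anti-CD25 2 mostly blue, while Il18rap and Gzma are blue on rat IgG 2.

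**Figure D4:**
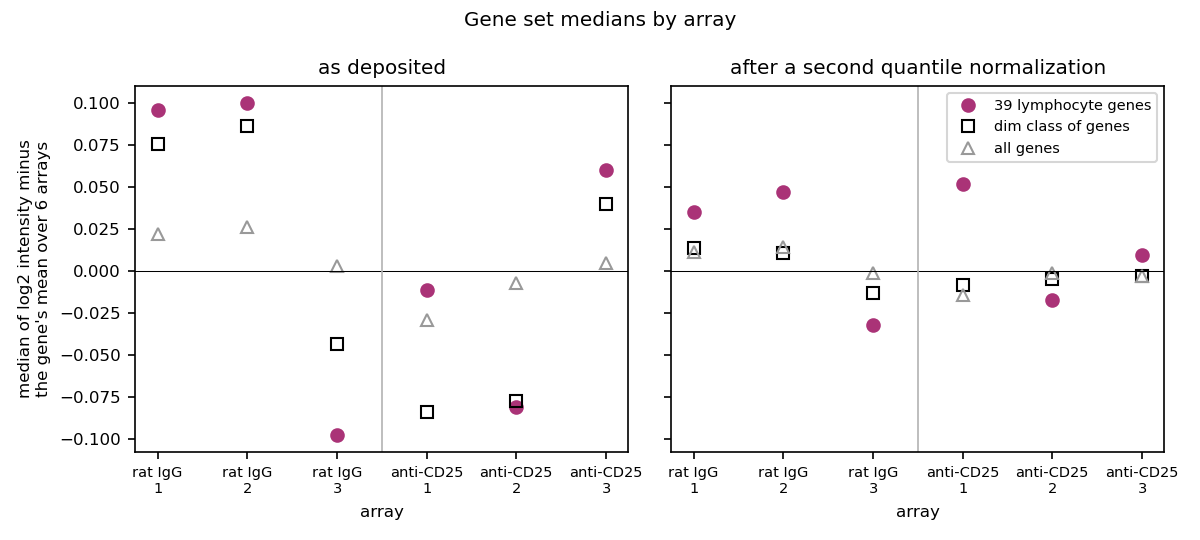
Median, over the 39 members (purple), the dim class of genes (black squares) and all genes (grey triangles), of log2 intensity minus the gene's mean over 6 arrays (y axis), on each array (x axis), for the deposited values and for those normalized a second time by quantiles. As deposited, members and dim genes are both high on rat IgG 1, rat IgG 2 and anti-CD25 3; after the second normalization the members span -0.032 to 0.052.

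Within arrays of each Xist level the treatment difference had opposite signs for many members. Among the 4 arrays with high Xist, 30 of 39 members were lower with anti-CD25 and the median was -0.15. Between the 2 arrays with low Xist, 28 were higher and the median was 0.12, with 1 array per treatment. The dim class of all genes did the same, with medians of -0.16 and 0.082. The lower quartile of the arrays differed between treatments by -0.16 at high Xist and by 0.14 at low Xist, so Xist level and dim-range level cannot be told apart in this contrast. In limma's interaction of treatment with Xist level, which leaves 2 residual degrees of freedom, 0 members passed an adjusted p of 0.05 (smallest 0.0601), against 8 of all genes (0.0405%). At an unadjusted p under 0.05 stood 13 members (33.3%), against 19.4% of all genes. They were 7 of 28 members in the dim class, against 32.5% of its genes, and 6 of 11 in the middle class, against 21.8%. In the middle class the median interaction was 0.40 for members and 0.0066 for all its genes. After a second quantile normalization 8 members (20.5%) had an unadjusted p under 0.05, against 12.2% of all genes. Of these, 7 were in the dim class and 1 in the middle class, where the median interaction was then 0.18 for members and -0.0047 for all genes. After it 0 members were past the adjusted threshold, against 0.0608% of all genes. The same normalization took the members' median interaction from 0.27 to 0.015 and the members with a positive one from 29 to 21. Cd247, Pdcd1, Cd3e, Ncr1 and Themis, singled out after their values were seen, had the smallest interaction p. At high and at low Xist, Cd247 differed by -0.41 and 0.54, and Cd3e by -0.26 and 0.42. Foxp3 differed by -0.23 and 0.18. After a second quantile normalization the interaction went from 0.95 to 0.66 for Cd247, from 0.68 to 0.48 for Cd3e and from 0.40 to 0.18 for Foxp3.

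**Figure D5:**
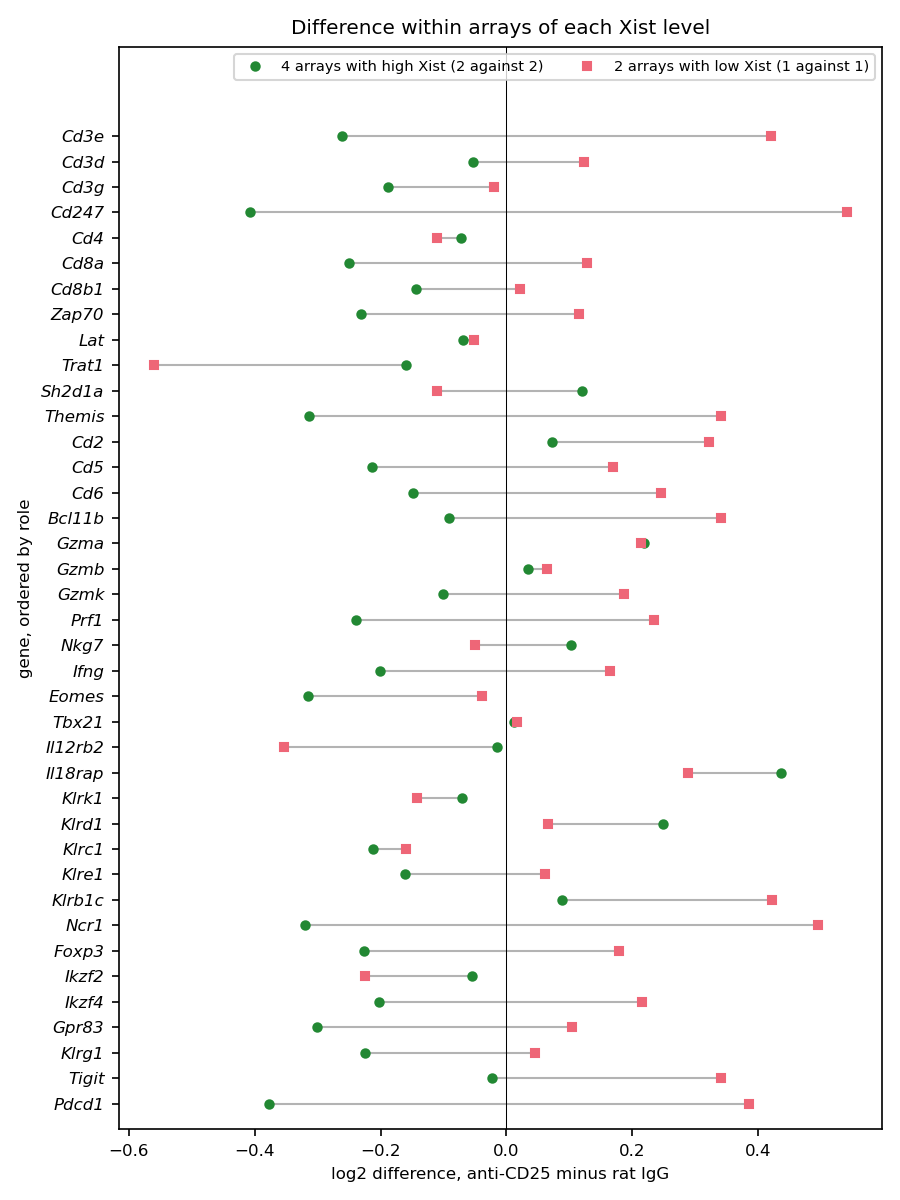
Log2 difference, anti-CD25 minus rat IgG (x axis), of each member (y axis) among the 4 arrays with high Xist (green circles, 2 against 2) and between the 2 arrays with low Xist (red squares, 1 against 1), joined by a line. Most green circles lie left of 0 and most red squares right of it, while Trat1, Il12rb2 and Ikzf2 are among those left of 0 in both and Il18rap is right of it in both.

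Beyond the listed members, 38 of 44 further T and NK lymphocyte genes were measured, 13 higher and 25 lower, with a median of -0.065. None passed adjusted over all genes, and 8 (21.1%) had an unadjusted p under 0.05, against 6.28% of all genes. This list was chosen with earlier results of these data known, so the share cannot be read as an independent excess. Lower were Lag3, Ctla4, Gata3, Ccr7 and Lrrc32, and higher were Il7r, Havcr2 and Entpd1. Lag3, an inhibitory receptor that binds MHC class II, measured 6.44, 6.61 and 6.49 with rat IgG and 6.17, 6.11 and 6.25 with anti-CD25. The groups stood apart and each was close within itself, with a difference of -0.33 (SE 0.084), -0.38 at high Xist, -0.24 at low Xist and -0.29 after a second quantile normalization. Gata3, the factor of type 2 T cells, measured 5.59, 5.56 and 5.56 with rat IgG and 5.17, 5.35 and 5.39 with anti-CD25, a difference of -0.26 (SE 0.086) that was -0.20 after that normalization. Ccr7, the receptor that guides naive and memory T cells to lymph nodes, measured 7.23, 7.07 and 7.20 with rat IgG and 6.92, 6.95 and 7.01 with anti-CD25, a difference of -0.21 (SE 0.082). Ctla4, an inhibitory receptor of regulatory T cells, differed by -0.21 (SE 0.079), which was -0.13 after that normalization. Il2ra, the gene for CD25 itself, measured 5.57, 5.71 and 5.73 with rat IgG and 5.71, 5.76 and 5.53 with anti-CD25, a difference of -0.0049 (SE 0.094) that turned to 0.052 after that normalization, with groups that overlapped.

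Havcr2 (TIM-3) and Entpd1 (CD39), which macrophages also make, differed by 0.73 (SE 0.21) and 0.32 (SE 0.11), and Il7r by 0.83 (SE 0.19). Beside them, all 12 monocyte and macrophage genes had higher means, with a median of 0.26, of which 2 (16.7%) had an unadjusted p under 0.05 by limma, against 6.28% of all genes. In the bright class of all genes 43.0% had lower means, and the median was 0.018. None of the 12 had groups that did not overlap, against 11.7% of all genes, which says little with so few genes. Between the 2 arrays with low Xist, Itgam, Cd14 and C1qa were lower with anti-CD25, at -0.096, -0.30 and -0.019. The macrophage list was chosen with earlier results of these data known. The summed intensity of the 12 ran from 14965 to 18211 with rat IgG and from 17502 to 23488 with anti-CD25. The part of macrophage RNA in Havcr2, Entpd1 and Il7r was not tested. B cell genes had 6 of 7 members lower with a median of -0.089, summed intensities of 461 to 517 and 422 to 533, and 3 of 7 below the lower quartile on every array. Cd79a, a chain of the B cell receptor complex, differed by -0.42 (SE 0.12), with a limma adjusted p of 0.750. It was the 1 B cell gene (14.3%) with an unadjusted p under 0.05, against 6.28% of all genes. Cd79b differed by -7.6e-06, Cd22 by 0.17 and the remaining B cell genes by -0.17 to -0.0060. Thymocyte genes had 5 of 6 lower with a median of -0.10, sums of 294 to 348 and 307 to 315, and 4 of 6 below the lower quartile throughout. Neutrophil genes had 4 of 6 lower, with sums of 367 to 458 and 337 to 440. For these 3 lists the background by signal was 76.1% of genes lower in the dim class and 57.6% in the middle class. The listed members themselves summed to 2265 to 2575 with rat IgG and 2325 to 2468 with anti-CD25, a range inside that of the controls. Constant region genes of the T cell receptor, 6 in all, had no probe set with their symbol alone and are not analysed here.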

How the data were processed

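RNA from whole muscle was hybridised to 1 Affymetrix array per sample. The authors deposited 24922 rows of linear intensity values, made with RMA in Affymetrix Power Tools per the submitters' processing notes; no version is stated there. Log2 was taken with no pseudocount, all values being above 0. Rows were named by the platform's annotation: 21425 had 1 symbol, 1399 several and 2098 none listed. By Entrez identifier 21347 matched RefSeq genes, and 0 symbols changed. For the 921 genes with several rows the one with the highest mean was used.

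Each gene was tested with limma 3.58.1 in R 4.3.3 (lmFit and eBayes, two-sided, group as the only term), with Benjamini-Hochberg adjustment over 19752 genes. The fit was tested only on simulated arrays with independent noise and changes larger than any member's difference. That test does not show how well differences of the members' size are found. Single genes were also compared by exact permutation. No set test was run. Values on every array are given for members without overlap or with an unadjusted p under 0.05, the 6 members with the most signal, and 9 fixed genes; of the further T and NK lymphocyte genes, those with an unadjusted p under 0.05 and Il2ra are named. Members and lists were chosen with earlier results of these data known. Alternatives covered normalization, variance model, array weights, signal filters, probe sets, blocks and left-out arrays. RMA draws dim values together, which understates their differences. The number of arrays limits the precision.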

Additional observations from a re-analysis of the deposited data

How the results depend on the processing

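No member passed the adjusted threshold under any of the 16 alternatives. Of 559 values of single members, 522 kept their sign and 37, of 15 members, turned it. Many of the 522 could not turn. The variance model, the blocks, the signal filters and the mean of probe sets leave a member's difference unchanged by design. The count of kept signs therefore overstates how stable they are. Members with an unadjusted p under 0.05 numbered 4 after a second quantile normalization (6.71% of all genes), 4 with array weights (11.4%), 0 above the 30th (6.39%) and 0 above the 50th percentile of signal (7.89%), and 11 among the 4 arrays with high Xist (20.7%). Members without overlap numbered 0 above the 30th percentile (11.8% of all genes there) and 0 above the 50th (12.7%). Among the arrays with high Xist they numbered 26, where 52.0% of all genes had no overlap. Above the 30th percentile 8 of 12 members were lower, and above the 50th 1 of 1; fewer members are tested there. With 1 array left out, genes past the adjusted threshold ran from 0 to 7, members with an unadjusted p under 0.05 from 1 to 6, members without overlap from 4 to 17 and the median difference from -0.12 to -0.0018.

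Signs turned to 0.032 for Cd6, 0.060 for Gzmk and 0.031 for Ncr1 after a second quantile normalization, to 0.0029 for Gzmk after median centring, and to -0.023 for Cd3d and -0.0079 for Bcl11b with array weights. Among the arrays with high Xist they turned to -0.052 for Cd3d, -0.092 for Bcl11b and -0.023 for Tigit. With 1 array left out the differences ran from -0.17 to 0.057 for Cd3e, -0.028 to 0.070 for Cd3d, -0.25 to 0.056 for Cd247, -0.0073 to 0.11 for Sh2d1a, -0.23 to 0.0015 for Themis, -0.11 to 0.042 for Cd6, -0.066 to 0.14 for Bcl11b, -0.042 to 0.11 for Gzmb, -0.11 to 0.057 for Gzmk, -0.18 to 0.027 for Prf1, -0.089 to 0.16 for Nkg7, -0.18 to 0.050 for Ifng, -0.033 to 0.068 for Tbx21 and -0.27 to 0.066 for Ncr1. The causes were not tested. Genes past the adjusted interaction numbered 12 after a second quantile normalization, a choice made after the data were seen.

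Whether the numbers in the titles pair the samples was not settled. Deviations of same-numbered arrays from their group means correlated at 0.030, -0.0067 and -0.17 across genes. With 3 arrays per group such values cannot exclude a pairing, and replicate 3 was the array with low Xist in both groups. The replicate block left 2 members with an unadjusted p under 0.05 in limma's test and 0 past the adjusted threshold. Low signal limits what can be seen of these genes, since 16 members lay below the lower quartile on every array.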
